A study of Mus musculus with 9 samples.

Results

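The genes described here carry the insulin and growth hormone signals into the liver or encode parts of the insulin-like growth factor system that the liver releases. They were chosen by name: the insulin receptor gene Insr, the receptor substrates Irs1 and Irs2, the kinase gene Akt2, the growth hormone receptor gene Ghr, the transcription factor gene Stat5b, the feedback inhibitor gene Socs2, and the secreted products Igf1, Igfals and Igfbp2. Of these 10 genes, 9 were found on the array by symbol, older symbol or accession, and Irs2 was not analysed here. The 9 genes had 21 probes among 41174 probes in all. All 9 genes were tested among 16803 genes, and 20 of their 21 probes were well above background on every array of at least 1 group.

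Liver RNA of male C57BL/6 mice aged 3 months was hybridised to 9 one-colour arrays, 3 for each of 3 groups. Mice of the first group were untreated wild types. The second group received an adeno-associated virus (AAV, a vector used to bring a gene into liver) with green fluorescent protein (AAV-GFP), and the third received AAV-hGRβ, which carries hGRβ, a splice isoform (β) of the glucocorticoid receptor from human. No group had a deletion, and the vector dose, the promoter and the time after injection were not given in the sources used here. The comparison with AAV-GFP asks what hGRβ adds to the vector, and the comparison of AAV-GFP with untreated liver asks what the vector alone does. AAV-hGRβ against untreated combines the 2 steps, and the 3 comparisons share samples.

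As background, insulin binds its receptor on hepatocytes, which phosphorylates IRS proteins and activates AKT. That signal restrains glucose production and promotes lipid synthesis. Growth hormone binds its own receptor and activates STAT5B through the kinase JAK2. STAT5B then drives Igf1 and Igfals, and genes for SOCS and CIS proteins that switch the receptor off again. The glucocorticoid receptor is known to cooperate with STAT5 on several of these liver genes.

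The probes read different stretches of the transcripts, so the letters of 4 of them are shown to say what was measured. They are the probe written for the insulin receptor mRNA, the second brightest probe of Igf1, the single probe of Igfals and the brightest probe of Ghr, each 60 bases long and read 5′ to 3′ as in the array files. No base is marked by capitals. On build mm7 they lie at chr8:3058920-3058979 (minus strand), chr10:87471884-87471943 (plus), chr17:23064462-23064521 (plus) and chr15:3153846-3153905 (minus). No annotation of that build was used, so exons and introns are not given.
Insr A_52_P6490: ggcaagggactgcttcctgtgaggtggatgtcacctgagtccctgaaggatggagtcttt
Igf1 A_52_P536434: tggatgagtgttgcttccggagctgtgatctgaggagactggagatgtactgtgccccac
Igfals A_51_P277088: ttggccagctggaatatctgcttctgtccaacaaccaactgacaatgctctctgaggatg
Ghr A_52_P680935: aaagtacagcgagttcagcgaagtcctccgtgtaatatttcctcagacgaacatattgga

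Promoter windows of 250 bases before to 50 after a start site were matched for 8 of the 10 genes, 16 windows in all (RefSeq, GRCm38.p6). They were searched on both strands for TTCNNNGAA, the palindromic form that STAT5 binds, and for GTAAACA or its reverse complement TGTTTAC, the form that forkhead factors such as FOXO1 bind. Neither motif overlaps the other. The first form stood in 3 of the 16 windows, once in Akt2 at 160 bases before the start and once in each of 2 Igfals windows, at 236 and 58 bases before the start. It stood in 8.3% of the 32841 windows of all genes. The forkhead form stood in 1 of the 16 windows, at 242 bases before the second Igfals start, against 3.65% of all windows. The Igfals sequences are shown because Igfals is a classical STAT5B target and had, after Insr, the largest difference of the 9 genes between AAV-hGRβ and untreated liver. Each gives the 250 bases before a start on the plus strand of chromosome 17, with the motif matches in capitals. A match describes letters and not a bound site.
Igfals, chr17:24877594-24877843: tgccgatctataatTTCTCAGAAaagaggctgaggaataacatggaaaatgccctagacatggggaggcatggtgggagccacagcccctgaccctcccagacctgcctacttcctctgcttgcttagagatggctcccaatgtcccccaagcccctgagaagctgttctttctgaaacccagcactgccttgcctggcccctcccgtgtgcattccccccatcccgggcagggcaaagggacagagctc
Igfals, chr17:24877981-24878230: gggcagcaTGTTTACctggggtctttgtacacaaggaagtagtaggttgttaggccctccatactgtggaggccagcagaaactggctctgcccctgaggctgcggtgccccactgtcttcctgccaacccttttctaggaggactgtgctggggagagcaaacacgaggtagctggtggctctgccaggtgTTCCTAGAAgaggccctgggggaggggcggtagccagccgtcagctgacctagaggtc

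Between 54.0% and 82.0% of gene spots on an array were well above background, with a median intensity of 37.7 to 79.0. Of the 14 hepatocyte markers tested, including albumin, every one was above background on at least 1 array of each group. The log2 of their summed linear levels was 11.8 to 12.2 in untreated, 12.004 to 12.3 in AAV-GFP and 11.6 to 11.9 in AAV-hGRβ liver. The other marker sums below are given in the same way. The 14 T and NK cell markers summed to 1.56 to 1.83, 1.62 to 1.93 and 2.71 to 3.85 in the same order. Of these, 5 rose in AAV-hGRβ over untreated, where 3.27% of all genes changed in either direction, and Cd8a was not above background on any untreated or AAV-GFP array. The 12 Kupffer cell and macrophage markers summed to 7.02 to 7.63, 7.27 to 8.35 and 8.42 to 9.04. Sums of the 6 neutrophil and monocyte markers on the array, 5 of them tested, were 1.86 to 3.01, 1.90 to 3.31 and 3.16 to 4.19. Those of the 6 B and plasma cell markers on the array, 4 of them tested, were 0.05 to 1.09, 0.30 to 1.38 and 1.298 to 1.89. Under plain normexp background correction (a model of local background) the median T and NK cell difference of AAV-hGRβ from AAV-GFP was 0.27, against 1.47 without it, and 6 of the 14 lay below 0. When unusually bright local backgrounds were replaced before that correction, the median was 0.97 and 3 of the 14 lay below 0. The part of these shifts in cell markers in the results below was not tested. In whole liver, fewer cells of a type and less RNA per cell cannot be told apart.

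Values below are log2 of the processed intensity over the array's own 75th percentile, so 0 is that percentile. The brightest probe stands for a gene, and levels of different probes are not set against each other. In AAV-hGRβ against untreated liver, the insulin receptor gene was the only gene of the 9 that changed: it fell by 1.29 on the log2 scale, 2.44-fold lower. That call rests on a probe derived from a cDNA clone and was lost in 15 of 20 alternative analyses, as described below. All 9 differences lay below 0 in that comparison, with a median of -0.48, while 43.4% of all genes lay below 0 and their median was 0.09. Of all genes, 3.27% changed and 0.774% fell. Against AAV-GFP, 8 of the 9 lay below 0 with a median of -0.42 (all genes 0.02, 47.3% below 0), and none of the 9 passed the threshold of 0.05 on limma's adjusted p, against 0.899% of all genes. At an unadjusted p under 0.05, 11.7% of all genes passed there. Between AAV-GFP and untreated liver no gene of the array passed (0%), while 9.8% had an unadjusted p under 0.05, and 6 of the 9 genes lay below 0. The hepatocyte markers lay below 0 against AAV-GFP too, 14 of 14 with a median of -0.38, and 8 of them had no overlap between the groups. So did the endothelial cell markers, 8 of 8 with a median of -0.28. Against untreated, 10 of the 14 hepatocyte markers lay below 0 (median -0.37), as did 5 of the 8 endothelial cell markers (median -0.19). Under plain normexp the hepatocyte median against AAV-GFP turned to 0.39, over the 13 markers tested with each correction, and the endothelial median to 0.12. With plain normexp background correction the members' median turned to 0.04 against untreated and was -0.03 against AAV-GFP. With that correction after unusually bright local backgrounds were replaced, the members' medians were -0.48 and -0.39. The hepatocyte and endothelial medians against AAV-GFP were then -0.34 and -0.26. That replacement touched 0 to 19 spots of an array.

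**Figure D1:**
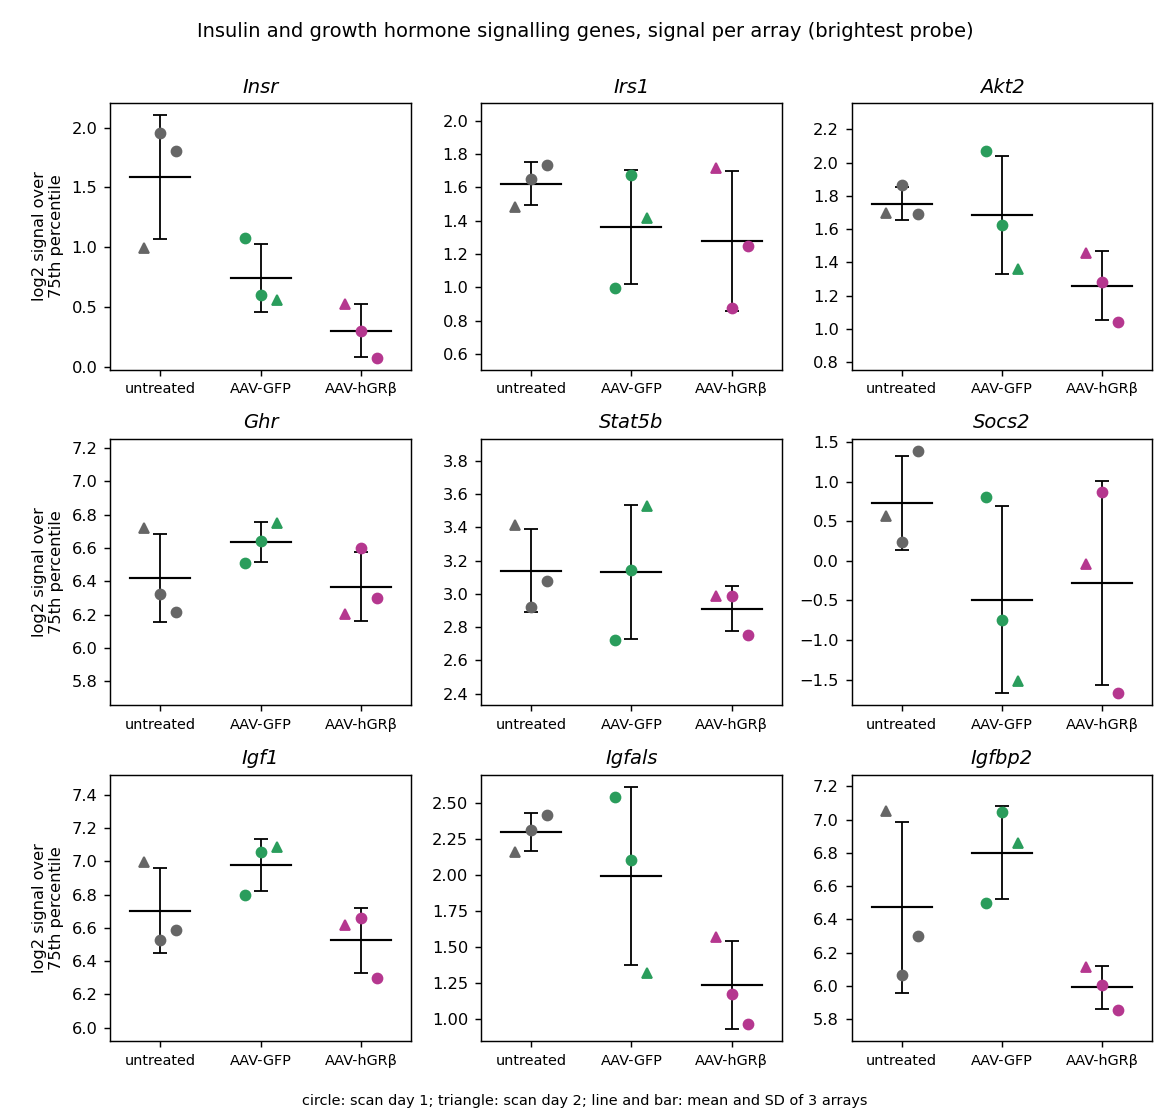
Signal of the 9 genes on each array, as log2 over the array's 75th percentile (y axis, own range per gene), by group (x axis). Points are arrays, circles scan day 1 and triangles scan day 2, and the line and bar are the mean and SD of 3 arrays. The AAV-hGRβ points of Insr lie below all untreated and AAV-GFP points, and Socs2 spreads widely within AAV-GFP and AAV-hGRβ.

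Insr encodes the receptor itself. On the untreated arrays, replicates 2, 3 and 4, its signal was 1.00, 1.96 and 1.81. It was 1.07, 0.60 and 0.56 on AAV-GFP replicates 1 to 3 and 0.52, 0.30 and 0.08 on AAV-hGRβ replicates 1 to 3. Every AAV-hGRβ array was thus below every array of the other groups, and untreated replicate 2 stood apart from its group at a level within the AAV-GFP range. The AAV-hGRβ mean was 0.30 ± 0.22 (SD, n = 3) and the untreated mean 1.59 ± 0.52 (SD, n = 3). The difference of -1.29 had an SE of 0.28, a 95% interval of -1.92 to -0.65 and an adjusted p of 0.0469. This call stood close to the threshold. It was lost in 15 of 20 alternative analyses, with adjusted p-values from 0.0142 to 0.440 over all of them. Leaving out any single array other than untreated replicate 2 ended it (0.0510 to 0.191), and without untreated replicate 2 the difference was -1.58 (adjusted p = 0.0142).

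The 2 parts of that difference did not pass on their own. AAV-GFP differed from untreated by -0.84 (95% interval -1.48 to -0.21, adjusted p = 0.490), and AAV-hGRβ from AAV-GFP by -0.44 (-1.08 to 0.19, adjusted p = 0.618). The arrays were scanned on 2 days, with 2 arrays of each group on day 1 and 1 on day 2. Each slide scanned on day 1 held 1 group alone, so on that day slide and group cannot be told apart. On day 2, AAV-GFP replicate 3 and AAV-hGRβ replicate 1 shared a slide, and untreated replicate 2 was on another. With slide as a random block (within-slide correlation 0.46) the Insr difference from untreated was -1.13 and did not pass (adjusted p = 0.261), and the genes called over the array in that comparison fell from 549 to 59. AAV-hGRβ minus untreated was -1.69 on day 1 and -0.47 on day 2, and AAV-hGRβ minus AAV-GFP was -0.65 and -0.04.

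The Insr probe behind these values, A_52_P494514 at chr8:3051011-3051070 on the minus strand of mm7, is named D630014A15Rik in the array files, an older symbol of Insr for a cDNA clone. It lies 7849 bases downstream of A_52_P6490, the probe shown above that was written for the receptor mRNA. That second probe was dim and was left out of the tests. It was well above background on 6 of 9 arrays, 2 in each group, with values of -4.50, -4.54 and -4.66 in untreated, -4.34, -4.82 and -3.66 in AAV-GFP and -3.16, -4.72 and -4.33 in AAV-hGRβ liver. Its groups overlapped and its mean in AAV-hGRβ, -4.07, was above the untreated mean of -4.56, so the fall rests on the clone-derived probe alone.

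Irs1 encodes the adaptor that the active receptor phosphorylates. Its signal was 1.48, 1.65 and 1.74 in untreated, 1.00, 1.67 and 1.42 in AAV-GFP and 1.72, 0.88 and 1.25 in AAV-hGRβ liver. The groups overlapped, and the difference of AAV-hGRβ from untreated was -0.34 (95% interval -0.92 to 0.23, adjusted p = 0.398). AAV-hGRβ differed from AAV-GFP by -0.08 (-0.66 to 0.49, adjusted p = 0.949). The probe behind these values was listed under a cDNA clone. The second, much dimmer probe, written for the Irs1 mRNA, was well above background on 8 of 9 arrays. Its means were -3.71 in untreated and -3.02 in AAV-hGRβ liver. That difference had the opposite sign, 0.69 (adjusted p over all probes = 0.395).

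Akt2 encodes the AKT kinase through which insulin acts on hepatic glucose and lipid metabolism. Its signal was 1.70, 1.87 and 1.69 in untreated, 2.07, 1.63 and 1.36 in AAV-GFP and 1.46, 1.28 and 1.04 in AAV-hGRβ liver. The AAV-hGRβ arrays lay below all untreated arrays but overlapped with AAV-GFP. The difference from untreated was -0.49 (95% interval -0.97 to -0.01) and did not pass (adjusted p = 0.190). Under plain normexp correction it was -0.13, and the difference from AAV-GFP, otherwise -0.42, was -0.026. The second Akt2 probe differed by -0.20.

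Ghr encodes the growth hormone receptor, which hepatocytes express strongly. Its brightest probe gave 6.72, 6.32 and 6.21 in untreated, 6.51, 6.64 and 6.75 in AAV-GFP and 6.20, 6.60 and 6.30 in AAV-hGRβ liver. The groups overlapped, and AAV-hGRβ differed from untreated by -0.05 (95% interval -0.49 to 0.39, adjusted p = 0.879) and from AAV-GFP by -0.27 (-0.71 to 0.17, adjusted p = 0.683). These intervals leave room for changes of up to 0.71 on the log2 scale. Ghr had 4 further probes. The probes A_51_P499854 and A_52_P680941, also written for the receptor mRNA, differed from untreated by -0.24 and -0.26 in AAV-hGRβ liver.

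The other Ghr probes, listed under cDNA clones, behaved differently from array to array. A_52_P633550 gave 2.80, 2.06 and 2.46 in untreated, 1.66, 0.87 and 1.96 in AAV-GFP and 1.92, 2.48 and 0.50 in AAV-hGRβ liver. A_52_P54106 gave -0.14, -0.56 and -0.35, then -0.997, -1.87 and -0.50, then -0.79, -0.21 and -2.22. On both probes AAV-GFP replicate 2 and AAV-hGRβ replicate 3 were the lowest arrays of their groups, and no group difference passed.

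**Figure D2:**
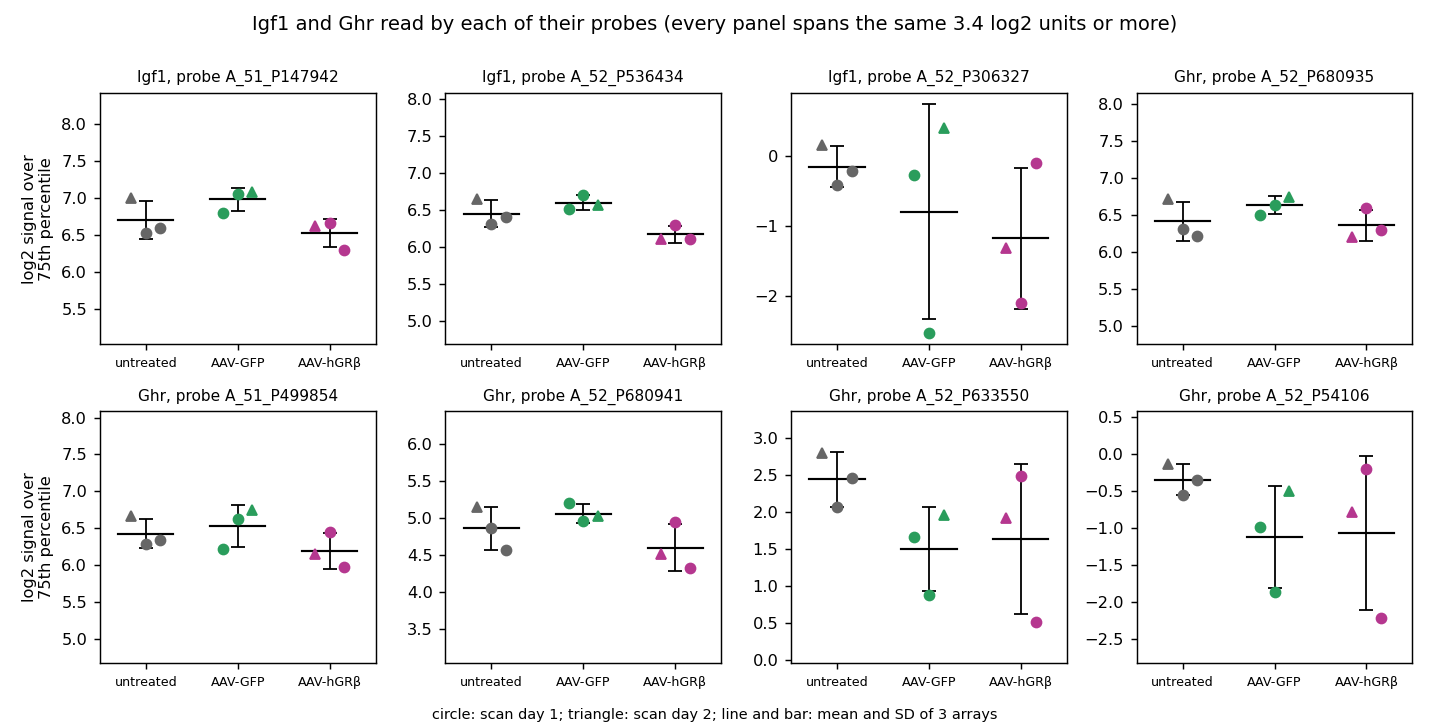
Signal of each of the 3 Igf1 probes and 5 Ghr probes on every array (y axis, log2 over the array's 75th percentile), by group (x axis). Points are arrays, circles scan day 1 and triangles day 2, with mean and SD of 3 arrays. The first 2 Igf1 probes show AAV-hGRβ below AAV-GFP with no overlap, and the clone-derived probes of both genes spread more within groups.

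Stat5b encodes the factor that carries the growth hormone signal to the nucleus. Its signal was 3.41, 2.92 and 3.08 in untreated, 2.72, 3.15 and 3.53 in AAV-GFP and 2.99, 2.99 and 2.75 in AAV-hGRβ liver. The groups overlapped in every comparison. AAV-hGRβ differed from untreated by -0.23 (95% interval -0.76 to 0.30, adjusted p = 0.540) and from AAV-GFP by -0.22 (-0.75 to 0.31, adjusted p = 0.807). The 2 dimmer Stat5b probes differed from untreated by -0.26 and -0.07 in AAV-hGRβ liver.

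Socs2 is induced by STAT5B and its protein damps signalling from the growth hormone receptor. It had the widest spread of the 9 genes, with 0.57, 0.23 and 1.38 in untreated, 0.80, -0.75 and -1.52 in AAV-GFP and -0.04, 0.87 and -1.67 in AAV-hGRβ liver. One array in each treated group, AAV-GFP replicate 1 and AAV-hGRβ replicate 2, lay within the untreated range and the others below it. No comparison passed, and the intervals were wide: AAV-GFP minus untreated was -1.22 (95% interval -2.87 to 0.44, adjusted p = 0.497), AAV-hGRβ minus untreated -1.01 (-2.66 to 0.65, adjusted p = 0.386) and AAV-hGRβ minus AAV-GFP 0.21 (-1.45 to 1.86, adjusted p = 0.953). A dimmer Socs2 probe, well above background on 7 of 9 arrays, differed by -0.33, -0.22 and 0.12 in the same order.

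The same arrays stood apart in Cish and Bcl6, of which Cish was singled out after its values were seen. Cish, a SOCS family inhibitor that STAT5 induces, was at 3.48, 2.90 and 3.79 in untreated, 3.78, -0.76 and 0.73 in AAV-GFP and 1.19, 3.09 and 1.04 in AAV-hGRβ liver. AAV-GFP replicate 1 and AAV-hGRβ replicate 2 were again within the untreated range and the other treated arrays below it. Bcl6, a repressor gene that STAT5 holds down, was at 2.27, 1.15 and 2.94, then 2.46, 5.22 and 4.96, then 4.51, 2.62 and 3.68. Here those 2 arrays were again within the untreated range and the other treated arrays above it. Of the 3 comparisons none passed for either gene. AAV-GFP minus untreated was 2.10 for Bcl6 (95% interval 0.30 to 3.90, adjusted p = 0.490) and -2.14 for Cish (-4.47 to 0.20, adjusted p = 0.490). Among the members, Igf1, Ghr, Stat5b and Igfbp2 did not show this pattern. For Igf1, AAV-GFP replicates 2 and 3, at 7.06 and 7.08, lay above the untreated range, and AAV-hGRβ replicate 1, at 6.62, within it. For Stat5b, AAV-GFP replicate 1, at 2.72, lay below the untreated range. Onecut1, also singled out after its values were seen, followed the pattern in part, with an untreated range of 2.48 to 3.58. It was at 2.64, 1.02 and 0.91 on AAV-GFP replicates 1 to 3 and at 1.56, 2.10 and 0.32 on AAV-hGRβ replicates 1 to 3. AAV-hGRβ replicate 2 was thus the highest of its group but below the untreated range. Igfals was below its untreated range on that array as well.

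Igf1 encodes the growth factor that the liver releases into blood under growth hormone. Its brightest probe gave 6.99, 6.53 and 6.59 in untreated, 6.80, 7.06 and 7.08 in AAV-GFP and 6.62, 6.66 and 6.30 in AAV-hGRβ liver. All AAV-hGRβ arrays lay below all AAV-GFP arrays but within reach of the untreated ones. AAV-hGRβ differed from AAV-GFP by -0.45 (95% interval -0.89 to -0.02), which did not pass (adjusted p = 0.406). The difference was -0.45 on scan day 1 and -0.47 on day 2. It turned to 0.29 under plain normexp background correction. The second probe, the Igf1 sequence shown above, gave 6.65, 6.30 and 6.40, then 6.51, 6.71 and 6.57, then 6.10, 6.30 and 6.10, again with every AAV-hGRβ array below every AAV-GFP array.

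The brightest Igf1 probe was printed on 10 spots of each array, which measures the error of a spot. The SD among the 10 spots was 0.02 to 0.08 within an array, while the SD between the 9 array means was 0.27 and their range 0.78. The remaining probe, listed under a cDNA clone, was dimmer and gave 0.16, -0.42 and -0.21 in untreated, -0.27, -2.53 and 0.39 in AAV-GFP and -1.31, -2.11 and -0.11 in AAV-hGRβ liver, with overlapping groups.

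Igfals encodes the acid-labile subunit that holds IGF1 in its long-lived serum complex. Its single probe gave 2.16, 2.31 and 2.42 in untreated, 2.54, 2.11 and 1.32 in AAV-GFP and 1.57, 1.18 and 0.97 in AAV-hGRβ liver. All AAV-hGRβ arrays lay below all untreated arrays, and AAV-GFP replicate 3 lay within the AAV-hGRβ range. The difference from untreated was -1.06, or 2.09-fold lower (95% interval -1.75 to -0.37), and did not pass (adjusted p = 0.0878). Without AAV-GFP replicate 3, which enters only the shared estimate of the spread, the same difference had an adjusted p of 0.0452. Against AAV-GFP the difference was -0.76 (-1.45 to -0.07, adjusted p = 0.371), with -1.25 on scan day 1 and 0.24 on day 2. Under plain normexp correction the 2 differences were -0.58 and -0.31.

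Igfbp2 encodes an IGF-binding protein made in liver. Its probe gave 7.05, 6.07 and 6.30 in untreated, 6.50, 7.05 and 6.86 in AAV-GFP and 6.11, 6.01 and 5.85 in AAV-hGRβ liver. The AAV-hGRβ arrays lay below all AAV-GFP arrays, and the untreated arrays reached over both ranges. AAV-hGRβ differed from AAV-GFP by -0.81, or 1.75-fold lower (95% interval -1.42 to -0.20), and did not pass (adjusted p = 0.268). The difference was -0.84 on scan day 1 and -0.75 on day 2, but over 20 alternatives it ran from -1.15 to -0.089, the latter under plain normexp correction. Against untreated it was -0.48 (-1.09 to 0.13, adjusted p = 0.278).

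For the remaining genes, AAV-GFP minus untreated was -0.26 for Irs1, -0.07 for Akt2, 0.22 for Ghr, -0.0053 for Stat5b, 0.28 for Igf1, -0.30 for Igfals and 0.33 for Igfbp2. None of these passed (adjusted p 0.530 to 0.993), and their 95% intervals reached from -0.99 (Igfals) to 0.94 (Igfbp2). In AAV-hGRβ against AAV-GFP, the groups did not overlap, with AAV-hGRβ lower, for 3 of the 9 genes (Insr, Igf1 and Igfbp2), against 6.46% of all genes. Against untreated liver this held for 3 of 9 (Insr, Akt2 and Igfals), against 14.6% of all genes, and for AAV-GFP below untreated for none of the 9, against 9.21%. By order of group means, Insr, Irs1, Akt2, Igfals and Stat5b ran from untreated over AAV-GFP to AAV-hGRβ. Igf1, Igfbp2 and Ghr were highest in AAV-GFP and lowest in AAV-hGRβ. Of the steps between neighbouring groups of these 8 genes, only that of Insr from AAV-GFP to AAV-hGRβ was free of overlap. Socs2 ran from untreated over AAV-hGRβ to AAV-GFP, with overlap at both steps.

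**Figure D3:**
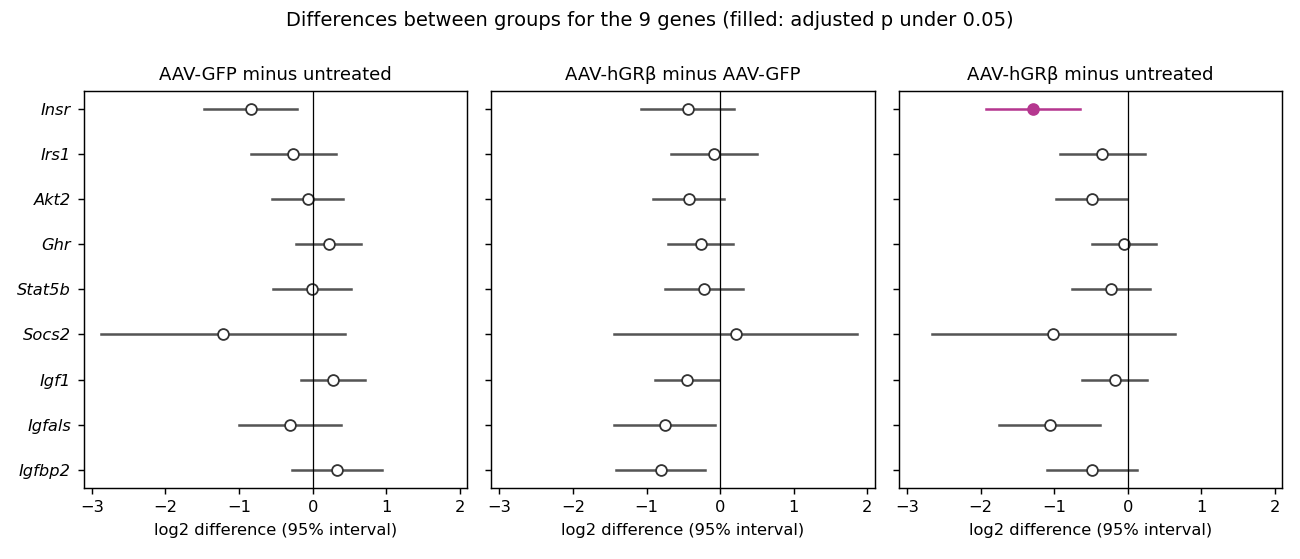
Log2 difference between group means of each of the 9 genes (x axis) in 3 comparisons, with its 95% interval from limma. The filled point is the only one with an adjusted p under 0.05, Insr in AAV-hGRβ against untreated at -1.29. Intervals of Socs2 are the widest.

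The genes whose pattern over the 9 arrays was most like that of the 3 genes with the smallest p were found by Pearson correlation among 14108 genes, as a description. For Insr these were Nfib (r = 0.983), Rhoq (0.983) and Sbno1 (0.976), for Igfals they were Hnrnpa0 (0.989), Pfkl (0.986) and Stub1 (0.983), and for Igfbp2 they were Chchd10 (0.970), Cyp2e1 (0.964) and Edf1 (0.957). All points share the 9 arrays and their scaling. Nfib, a transcription factor gene, fell by 1.45 in AAV-hGRβ against untreated (adjusted p = 0.0384), and none of the other 8 passed in that comparison, where 3.27% of all genes changed. Nfib was picked for its likeness to the Insr probe on the same arrays, so its call is no separate result. It was not followed through the alternative analyses.

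Of 39 genes listed for insulin signalling, 38 were on the array and 37 were tested. In AAV-hGRβ against untreated, 2 fell and none rose, against 0.774% of all genes that fell and 3.27% that changed in either direction. Of the 37, 33 lay below 0 with a median of -0.38. The hepatocyte markers had a median of -0.37 in that comparison, with 10 of 14 below 0. The 2 insulin signalling genes that fell were Insr and Ceacam1. Insr was read by its clone-derived probe alone. The protein of Ceacam1 is phosphorylated by the receptor and promotes hepatic insulin clearance. Ceacam1 was at 0.04, 0.50 and 0.69 in untreated, 0.32, 0.13 and 0.11 in AAV-GFP and -0.45, -0.97 and -0.66 in AAV-hGRβ liver, with all AAV-hGRβ arrays below the rest. It fell by 1.11 (95% interval -1.60 to -0.61, adjusted p = 0.0367), with -1.41 and -0.49 within the scan days. The call was lost in 10 of 20 alternatives (adjusted p up to 0.221), among them the fits without AAV-GFP replicate 2, AAV-hGRβ replicate 2 or 3, or untreated replicate 3 or 4 (0.0657 to 0.158). Its 2 other kept probes differed by -0.62 and -0.35.

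None of the 37 insulin signalling genes passed against AAV-GFP, where 28 lay below 0 (median -0.13). The smallest p-values there belonged to Ceacam1 (-0.88, adjusted p = 0.133), the AKT phosphatase gene Phlpp1 (-0.43, adjusted p = 0.457) and Akt2 (-0.42, adjusted p = 0.495). With plain normexp correction the list's median against AAV-GFP was 0.17, and with bright local backgrounds replaced it was -0.11. Between AAV-GFP and untreated liver none passed and 29 lay below 0 (median -0.26). There the smallest p-values belonged to Ptpn1, encoding a phosphatase that turns the receptor off (-0.62), to Insr (-0.84) and to Foxo1, the forkhead factor that insulin excludes from the nucleus (-0.90), each with an adjusted p of 0.490.

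**Figure D4:**
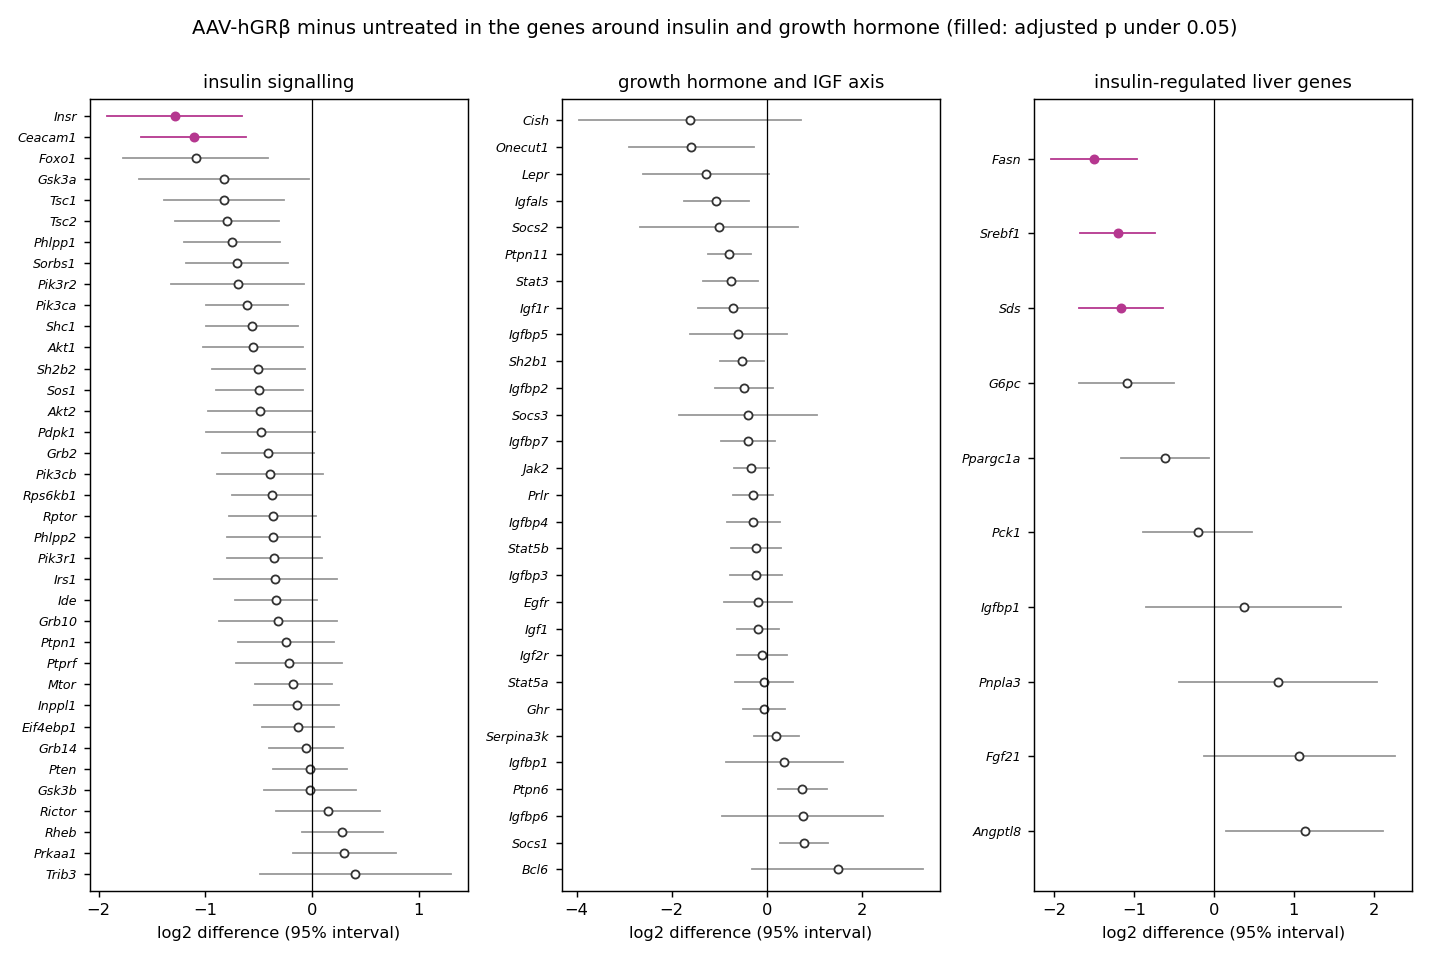
Log2 difference of AAV-hGRβ minus untreated (x axis) with its 95% interval for the reported genes of 3 lists: 37 insulin signalling genes, 29 growth hormone and IGF genes and 10 insulin-regulated liver genes. Filled points have an adjusted p under 0.05. Most insulin signalling points lie left of 0, and the filled points are Insr, Ceacam1, Fasn, Srebf1 and Sds.

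Of 31 genes listed for the growth hormone and IGF axis, 29 were tested. None of the 29 passed in AAV-hGRβ against untreated, and 23 lay below 0 (median -0.29, but 0.04 with 14 of 29 below 0 under plain normexp correction). With bright local backgrounds replaced, 23 of 29 lay below 0 (median -0.26). The smallest p-values were those of Ptpn11, encoding a phosphatase of receptor signalling (-0.78, adjusted p = 0.0638), the inhibitor gene Socs1 (0.79, adjusted p = 0.0859) and Igfals (-1.06, adjusted p = 0.0878). Socs1 was at -1.28, -1.69 and -1.46 in untreated, -1.82, -2.09 and -1.30 in AAV-GFP and -0.78, -0.70 and -0.59 in AAV-hGRβ liver, with every AAV-hGRβ array above the rest. The T and NK cell marker sums given above were higher on the same arrays, and their part in it was not tested.

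None of the 29 genes passed against AAV-GFP, where 23 lay below 0 (median -0.22, and 0.22 under plain normexp correction). With bright local backgrounds replaced, the median was -0.19. The smallest p-values were those of Socs1 (1.05, adjusted p = 0.0840), Igfbp2 (-0.81, adjusted p = 0.268) and Igfals (-0.76, adjusted p = 0.371). Between AAV-GFP and untreated liver none passed and 15 of 29 lay below 0. The smallest p-values there were those of Ptpn11 (-0.53), Bcl6 (2.10) and the IGF1 receptor gene Igf1r (-0.86), each with an adjusted p of 0.490.

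Liver genes that insulin regulates were listed too, with 10 of 11 genes tested. In AAV-hGRβ against untreated, 3 fell and none rose, against 0.774% of all genes that fell, while 6 of 10 lay below 0 (median -0.41). The count was under 2 in 8 of 19 alternatives, and 0 with no filter, plain normexp, or slide or replicate number as a block. The 3 do not share a direction under insulin: Srebf1 and its target Fasn, which make fatty acids, are induced by it, while Sds, a serine-degrading enzyme of gluconeogenesis, is repressed. Fasn was at 7.01, 7.91 and 7.53 in untreated, 6.73, 7.02 and 6.67 in AAV-GFP and 6.07, 5.97 and 5.90 in AAV-hGRβ liver. It fell by 1.503 (95% interval -2.04 to -0.97, adjusted p = 0.0163), with -1.78 and -0.94 within the scan days.

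Srebf1, the lipogenic transcription factor gene, was at 6.47, 6.78 and 6.40 in untreated, 6.50, 6.26 and 5.90 in AAV-GFP and 5.56, 5.30 and 5.18 in AAV-hGRβ liver, and fell by 1.21 (adjusted p = 0.0241). Sds was at 4.13, 4.27 and 4.60 in untreated, 4.82, 4.27 and 3.98 in AAV-GFP and 3.11, 3.23 and 3.16 in AAV-hGRβ liver, and fell by 1.16 (adjusted p = 0.0386). For all 3 genes every AAV-hGRβ array lay below every other array. Over 20 alternatives the calls of Fasn, Srebf1 and Sds were lost in 7, 8 and 11. Under plain normexp the differences were -0.93, -0.61 and -0.66 (adjusted p = 0.645, 0.726 and 0.726), and with slide as a random block the adjusted p-values were 0.104, 0.192 and 0.240. The Fasn call was lost without AAV-hGRβ replicate 3 or untreated replicate 3 or 4 (adjusted p 0.0612 to 0.0879). The Srebf1 call was lost without those arrays or AAV-hGRβ replicate 2 (0.0638 to 0.121). The Sds call was lost without AAV-GFP replicate 2, any AAV-hGRβ array, or untreated replicate 3 or 4 (0.0682 to 0.164).

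None of the 10 passed against AAV-GFP, where 7 lay below 0 (median -0.68, but -0.07 under plain normexp correction). With bright local backgrounds replaced, the median was -0.59. The smallest p-values were those of Sds (-1.19, adjusted p = 0.0631) and Srebf1 (-0.87, adjusted p = 0.119). Between AAV-GFP and untreated liver none passed, and the smallest p-values were those of Fasn (-0.67) and the gluconeogenic gene Pck1 (0.50), with adjusted p-values of 0.490 and 0.497.

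**Figure D5:**
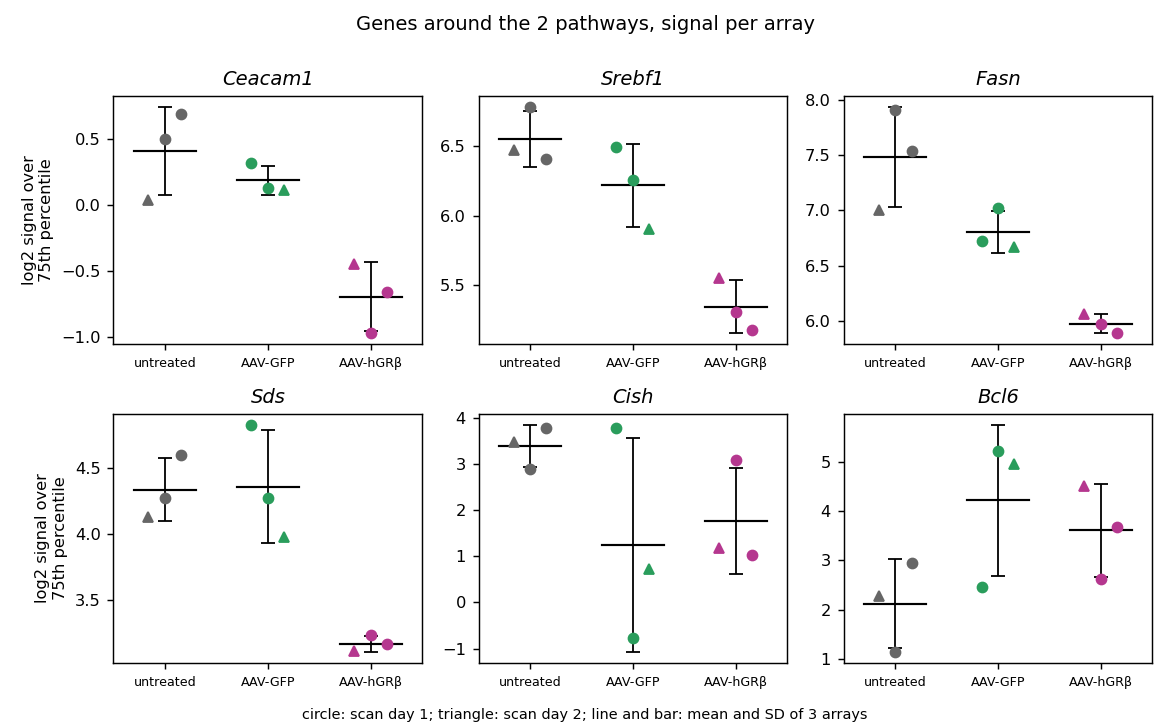
Signal per array (y axis, log2 over the array's 75th percentile) of 6 genes around the 2 pathways, by group (x axis), with mean and SD of 3 arrays. Circles are scan day 1 and triangles day 2. Ceacam1, Srebf1, Fasn and Sds lie lower on all 3 AAV-hGRβ arrays than on any other, while Cish and Bcl6 spread within the treated groups in opposite directions.

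The pattern of growth hormone release, pulsed in males and steady in females, sets the sex bias of many mouse liver genes. Of 15 male-biased genes tested, none passed in any comparison. Against AAV-GFP 13 lay below 0 (median -0.23), but under plain normexp correction 1 of 15 did (median 0.44). With bright local backgrounds replaced, 12 of 15 did (median -0.22). The smallest p-values against untreated were those of Serpina1e (-0.69, adjusted p = 0.0808) and Cyp4a12a (-0.90, adjusted p = 0.119), and against AAV-GFP those of Serpina1e (-0.66, adjusted p = 0.205) and C8a (-0.53, adjusted p = 0.412). For AAV-GFP against untreated they were Slco1a1 (0.84, adjusted p = 0.490) and Cyp4a12a (-0.67, adjusted p = 0.490).

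Of 10 female-biased genes tested, 1 fell in AAV-hGRβ against untreated, the fatty acid hydroxylase gene Cyp4a10, by 1.42 (95% interval -2.13 to -0.71, adjusted p = 0.0481), against 0.774% of all genes that fell. It was at 4.28, 4.21 and 4.05 in untreated, 4.20, 4.18 and 3.31 in AAV-GFP and 3.09, 2.18 and 3.01 in AAV-hGRβ liver. The call was lost in 14 of 20 alternatives, among them the fit without any single array other than AAV-GFP replicate 3 or untreated replicate 2 (adjusted p 0.0558 to 0.168). Against AAV-GFP none passed, and the smallest p-values were those of Cyp4a10 (-1.13, adjusted p = 0.185) and Abcd2 (-1.31, adjusted p = 0.371). For AAV-GFP against untreated they were those of Cyp3a41a (0.25, adjusted p = 0.561) and Cyp3a44 (0.26, adjusted p = 0.588).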

How the data were processed

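The array files held, per the file headers, 1 Cy3 channel: linear spot intensity after background subtraction within the array, and background intensity and flags beside it. The submitters' processing notes name Agilent Feature Extraction 9.5, and later steps were not given in the sources used here. The deposited series table held the same intensity values, with a largest difference of 0. Outlier-flagged spots were dropped and spots of a probe averaged. Values were log2 intensity minus the array's 75th percentile. Probes well above background throughout at least 1 group were kept (24290 probes), and the brightest kept probe stood for its gene. Names came from a RefSeq table (GRCm38.p6, names only), and probe positions are on mm7.

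All 9 arrays entered a single limma fit (version 3.58.1, R 4.3.3, lmFit, then eBayes). Tests were two-sided, on 6 residual degrees of freedom plus those that eBayes adds from the spread of all genes. Benjamini-Hochberg adjustment ran over all 16803 genes in each of 3 comparisons, with a threshold of 0.05. Nothing in the labels says that replicates are separate animals, so p-values measure the spread between these samples, which may be technical. The number of arrays limits the precision. Tested on simulated data for AAV-hGRβ minus AAV-GFP (16803 genes), the fit recovered 0% of changes of 0.5, 30% of 1, 76% of 2 and 98% of 3 log2 units. The simulated noise was independent between arrays, without the slide and scan day structure of the real arrays (within-slide correlation 0.46).

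The members and lists were chosen with earlier results of these data known, and 3 list genes are not reported here. Named were all members, list genes past the threshold (else the 3 of smallest p in the 2 signalling lists, 2 in the others), and for 3 members the 3 genes of highest correlation. Alternatives were normexp correction (offset 50, as it is or with local backgrounds over 3 times the array median replaced), quantile and median scaling, no filter on dim probes, the mean over probes, probes fitted singly, scan day, slide or replicate number as a block, the series table and each array left out. The alternatives for list genes past the threshold other than Insr, and for the list of insulin-regulated genes, were chosen after seeing the data.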

Additional observations from a re-analysis of the deposited data

How the results depend on the processing

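Of the differences of the 9 genes in 3 comparisons, the call of Insr (AAV-hGRβ minus untreated) was lost in 15 of 20 alternatives at -0.90 to -1.40, and that of no other gene was gained except Igfals without AAV-GFP replicate 3. With limma, median scaling moved the median of all genes to -0.31 (AAV-hGRβ minus AAV-GFP) and -0.24 (minus untreated), no filter on dim probes to 0.13 and 0.22, and plain normexp to -0.13 (minus untreated). Under plain normexp, 5 of the 9 genes lay below 0 in AAV-hGRβ minus AAV-GFP and 4 of 9 in AAV-hGRβ minus untreated. With bright local backgrounds replaced (0 to 19 spots of an array), 8 of 9 and 9 of 9 did. The cause of the changes below was not tested.

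No difference that turned its sign had passed. Under plain normexp, AAV-hGRβ minus AAV-GFP turned to 0.47 (Ghr), 0.29 (Igf1), 0.35 (Irs1), 0.42 (Stat5b) and -0.30 (Socs2), and AAV-hGRβ minus untreated to 0.49 (Ghr), 0.40 (Igf1), 0.043 (Irs1), 0.043 (Igfbp2) and 0.28 (Stat5b). With the mean over probes, Irs1 turned to 0.17, 0.010 and 0.16 (AAV-hGRβ minus untreated, AAV-hGRβ minus AAV-GFP, AAV-GFP minus untreated), and AAV-GFP minus untreated to -0.24 (Ghr) and -0.075 (Igf1). Median scaling turned Socs2 against AAV-GFP to -0.13, quantile scaling Ghr in AAV-GFP minus untreated to -0.058, and slide as a random block Irs1 against AAV-GFP to 0.056. Stat5b in AAV-GFP minus untreated turned to 0.00035 (normexp with bright backgrounds replaced), 0.016 (slide block) and 0.048 (replicate block). Leaving out 1 array gave values on both sides of 0: for AAV-GFP minus untreated -0.26 to 0.095 (Akt2), -0.58 to 0.029 (Igfals) and -0.20 to 0.20 (Stat5b), for AAV-hGRβ minus untreated -0.17 to 0.099 (Ghr), and for AAV-hGRβ minus AAV-GFP -0.30 to 0.12 (Irs1) and -0.36 to 0.91 (Socs2).

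Genes called over the array, 151 against AAV-GFP, numbered 95 (median scaling), 30 (no filter), 18 (plain normexp), 258 (scan day), 76 (slide) and 40 to 165 leaving out an array, with 40, 47, 42 and 96 without AAV-GFP replicate 1, AAV-hGRβ replicate 1 or 3, or untreated replicate 4. Against untreated, 549 became 84 (no filter), 49 (plain normexp), 828 (bright backgrounds replaced), 1251 (scan day), 59 (slide) and 94 to 2034 leaving out an array. These were 238 without AAV-GFP replicate 2, 330, 287 and 94 without AAV-hGRβ replicates 1 to 3, and 2034, 108 and 98 without untreated replicates 2 to 4. For AAV-GFP minus untreated, 0 became 4 (median scaling), 1 (quantile), 1 (scan day) and 0 to 1 leaving out an array. Of the insulin signalling list, 2 called against untreated became 0 (mean over probes, no filter, plain normexp, slide), 1 (quantile) and 0 to 6 leaving out an array. Of the growth hormone and IGF list, 0 called against untreated became 1 (median scaling), 2 (bright backgrounds replaced), 1 (quantile) and 0 to 2 leaving out an array, and against AAV-GFP 0 to 1.

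Replicate numbers did not pair the samples: the deviations of same-numbered AAV-GFP and AAV-hGRβ arrays correlated at 0.01, 0.24 and 0.01. With the replicate block, 2 genes were called against AAV-GFP and 1 against untreated, and 0 of the insulin signalling and 0 of the growth hormone and IGF list, with Insr at -1.31 (adjusted p = 0.226).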
